A study of Mus musculus with 5 samples.

Results

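The Schlafen genes (Slfn) were followed through uteri of mice exposed to the seminal plasma (SP) of young or aged males. The members Slfn1, Slfn2, Slfn3, Slfn4, Slfn5, Slfn8 and Slfn9 were found by their symbols in the deposited count table, where they are 7 of 28666 listed genes, and all 7 had enough counts to be tested. The members were chosen by measured values, since the family was put forward with its levels in these libraries and its fold changes between these groups already known, among them that 1 young-SP library stood apart. Its values are therefore given as a description and support nothing. In both groups, ICR females aged 6 to 8 weeks were caged with vasectomized C57BL/6 males, whose ejaculate holds seminal plasma without sperm, so that the females were pseudopregnant. The males were 12 to 14 weeks old in the young-SP group (3 libraries, replicates 1, 2 and 4) and 12 to 18 months old in the aged-SP group (2 libraries, replicates 1 and 4). RNA of the uterus was sequenced, and the time of collection is recorded both as 3.5 days after caging and as 3.0 days post coitum. The labels do not say how many females a library holds or whether females shared a male, so the spread between libraries may be partly technical. A further young-SP library that the authors set aside as an outlier was not analysed here.

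Schlafen proteins are found across mammals, share an ATPase-like core and restrain growth or translation in cells, and the mouse carries an expanded set of their genes. Short members consist of little more than this core, intermediate members add a linker region, and long members also carry a helicase-like end. Many of the genes are induced by type I interferon, the alarm signal of virus infection that acts through kinases such as Jak1 and Tyk2 and factors such as Stat2 and Irf9, and they are best known from T cells, macrophages and other leukocytes. In the uterus, leukocytes and the epithelium respond to mating before the embryo arrives.

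The 7 genes lie in a single cluster on mouse chromosome 11, here given on GRCm38, the build with which the deposited positions were matched. Slfn5 is at chr11:82951349-82964840 on the plus strand and Slfn9 at chr11:82978390-82991830 on the minus strand. Slfn8 follows at chr11:83002158-83020810 on the minus strand. The other 4 are all on the plus strand, with Slfn2 at chr11:83065112-83070678, Slfn1 at chr11:83116849-83122670, Slfn4 at chr11:83175186-83190216 and Slfn3 at chr11:83191330-83215154. All are annotated as protein coding. The exons of a gene cover 1664 bases in Slfn2 and 1864 in Slfn1, the short members. They cover 3411 in Slfn3 and 3964 in Slfn4, and 4091, 5965 and 6326 in the long members Slfn8, Slfn9 and Slfn5.

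Copies this close can share reads, and reads can also be shared with genes outside the family. Of the 50-base stretches of a gene's transcripts, those that also occur in transcripts of other genes made up 0.606% in Slfn1 and 4.27% in Slfn2. The share was between 11.1% and 16.0% in the other 5 members. The part shared with Schlafen genes was 7.392% in Slfn3. In Slfn5 it was 7.385%, with the antisense RNA Slfn5os. In Slfn8 all of the shared stretches (14.6%) occurred in the pseudogene Slfn10-ps or in Slfn9. In Slfn9, 8.1% occurred in Slfn10-ps and 6.52% in Slfn8. Slfn4 shared 6.28% of its stretches with Slfn3, and Slfn3 shared 7.39% of its own with Slfn4. Gm11427, which lies beyond Slfn3 on the chromosome, held 6.454% of the stretches of Slfn3 and 4.015% of those of Slfn4. Slfn5 overlaps the antisense RNA Slfn5os by 559 bases of exon, and how the authors assigned reads to strands or to repeated sequence is not given in the sources used here. Values of Slfn3, Slfn4, Slfn5, Slfn8 and Slfn9 are uncertain by reads of this kind.

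The start regions show which members are alike beyond the rule. All 7 had a promoter entry in RefSeq (GRCm38.p6), and the 250 bases before each start were searched on both strands for the core of the interferon-stimulated response element, which reads GAAA, any 2 bases and GAAA again. It occurred in 3 of 7 members, Slfn5, Slfn8 and Slfn9, against 2.98% of 32851 promoters and 16 of the 31 interferon-stimulated genes of the list below that have an entry (51.6%). The gamma-activated site TTCNNNGAA was found in 0 of 7, and in 7.02% of all promoters. The sequences around the match are shown for these long members, with the matched letters in capitals, which on the minus reading appear as TTTCGTTTTC. They lie at chr11:82951917-82951986 (plus strand), chr11:82991831-82991925 (minus) and chr11:83020811-83020908 (minus). The RefSeq start of Slfn5 is inside the deposited span of the gene, whose annotation has further starts upstream.
Slfn5: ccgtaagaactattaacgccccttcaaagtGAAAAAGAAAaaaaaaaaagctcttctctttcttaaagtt
Slfn9: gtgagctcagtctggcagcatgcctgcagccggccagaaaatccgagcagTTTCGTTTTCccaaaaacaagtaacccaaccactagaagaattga
Slfn8: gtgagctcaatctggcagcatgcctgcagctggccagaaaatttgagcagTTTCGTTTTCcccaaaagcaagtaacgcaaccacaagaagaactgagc
The match begins 155, 45 and 48 bases before the start of Slfn5, Slfn9 and Slfn8. Slfn8 has a second RefSeq start, from which the same match lies 136 bases away. The last pair of sequences runs nearly in parallel, and over the whole windows the promoters of Slfn8 and Slfn9 were identical at 204 of 255 aligned positions (80%), whereas all other pairs of members lay between 42.7% and 50%.

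The remaining 4 members, which have no match to the response element core in this window, hold the run ACTTCCTGG on the plus reading, in capitals below. It was noticed on reading these sequences and is found in 0.7% of all promoters (230 of them). It does not overlap the other motifs. The short and intermediate members are shown because their promoters are otherwise no more alike than any pair, between 44.2% and 49.1%. They lie at chr11:83065027-83065095 (Slfn2), chr11:83116716-83116784 (Slfn1), chr11:83191258-83191326 (Slfn3) and chr11:83174936-83175185 (Slfn4, the whole window, given in full because its RNA varied most), all on the plus strand.
Slfn2: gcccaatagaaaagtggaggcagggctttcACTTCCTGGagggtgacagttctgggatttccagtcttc
Slfn1: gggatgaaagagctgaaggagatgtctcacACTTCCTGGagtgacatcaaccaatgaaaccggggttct
Slfn3: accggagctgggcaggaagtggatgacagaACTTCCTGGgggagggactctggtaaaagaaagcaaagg
Slfn4: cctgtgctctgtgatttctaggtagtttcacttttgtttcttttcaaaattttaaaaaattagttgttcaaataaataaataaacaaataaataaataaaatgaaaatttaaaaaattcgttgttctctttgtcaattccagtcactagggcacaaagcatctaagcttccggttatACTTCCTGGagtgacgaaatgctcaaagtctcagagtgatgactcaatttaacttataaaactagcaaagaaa
The run begins 55, 74, 42 and 73 bases before the starts of Slfn2, Slfn1, Slfn3 and Slfn4. A match to letters is a description and not a bound site, and a missing match says only that the letters are not in this window.

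The libraries held between 15071914 and 16728601 counts, and 17013 of the listed genes passed edgeR's filter on low counts. Values below are CPM, counts brought to the same effective library total by edgeR's TMM scaling, unless counts or FPKM are named. The markers of uterus, epithelium, stroma, myometrium and endothelium were present in every library. Of 4 ovary markers only 2 had a row, and they summed to at most 0.267 CPM in a library. Of 3 seminal vesicle markers only 1 had a row, with at most 0.181 CPM. Oviduct markers summed to between 50.2 and 251.5 CPM, and their part in the results was not tested. In bulk tissue, fewer cells of a type and less RNA per cell cannot be told apart.

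Compared per length, the family was led by Slfn2. Its mean FPKM over the 5 libraries was 29.0 (SD 13.9), and it was first in 4 of 5 libraries. Slfn4 followed in the mean at 16.5, but with an SD of 30.4 and a median of 1.26, so that this place rested on 1 library. The others were Slfn5 at 14.9 (SD 3.39), Slfn9 at 10.2 (SD 5.95), Slfn8 at 5.42 (SD 3.12), Slfn1 at 3.39 (SD 3.73) and Slfn3 at 2.24 (SD 0.308). Slfn9 was above Slfn8, and Slfn8 above Slfn1, in 5 of 5 libraries. Slfn5 was above Slfn9 in 4 of 5. Slfn1 exceeded Slfn3 in 2 of 5 libraries, and the means of this pair differ by less than the SD of Slfn1.

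The summed FPKM of the 7 genes was 91.9 and 65.6 in aged-SP replicates 1 and 4, and 173.1, 38.7 and 39.3 in young-SP replicates 1, 2 and 4. The highest and the lowest library thus both belonged to the young-SP group. Slfn4 made up 40.8% of the sum in young-SP replicate 1 and 10.3% in aged-SP replicate 1, and between 1.66% and 1.91% in the other 3 libraries. Without Slfn4 the sums were 82.4, 64.3, 102.5, 38.0 and 38.6 in the same order, and young-SP replicate 1 was still the highest.

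**Figure D1:**
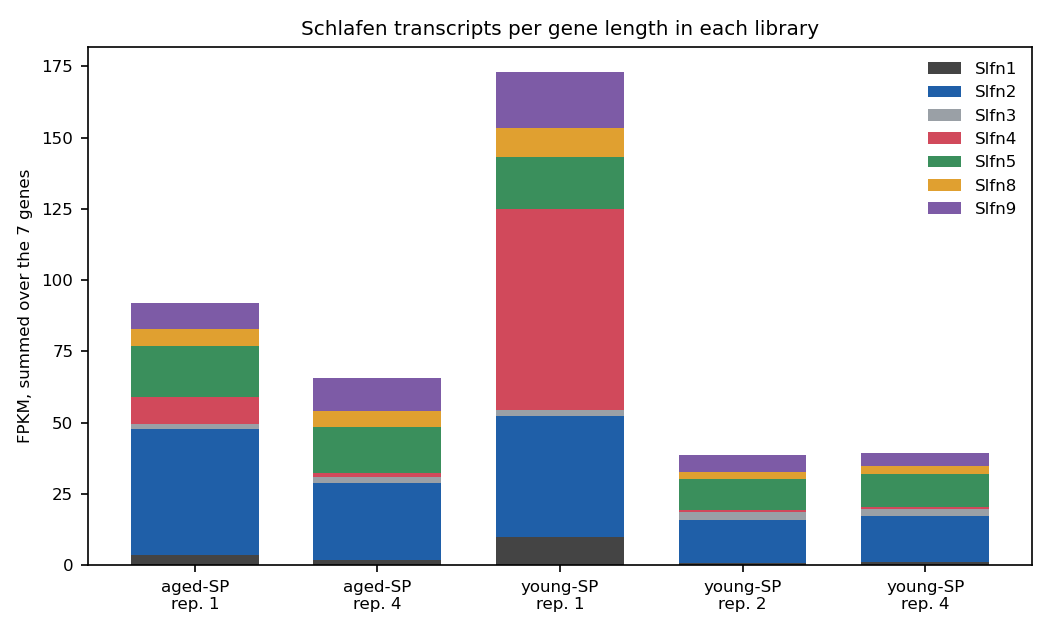
Bars give FPKM (counts scaled by gene length and library total, as deposited) of the 7 Schlafen genes, stacked, in each of the 5 uterus libraries. Young-SP replicate 1 reaches 173.1, of which Slfn4 is the largest piece, while young-SP replicates 2 and 4 stay at 38.7 and 39.3.

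Slfn2, the short member that keeps T cells in quiescence and shields transfer RNA from cleavage, had 74.3 and 45.0 CPM in aged-SP replicates 1 and 4 and 71.1, 24.7 and 27.2 CPM in young-SP replicates 1, 2 and 4. Young-SP replicate 1 lay between the aged-SP libraries, and the other young-SP libraries lay below both. The aged-SP libraries averaged 59.6 ± 20.7 CPM (SD, n = 2), the young-SP libraries 41.0 ± 26.1 CPM (SD, n = 3). The log2 fold change, here and below aged-SP over young-SP, was 0.54 (SE 0.52). Without young-SP replicate 1 it was 1.19 (SE 0.26).

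Slfn1, the short member first described as a brake on thymocyte growth, was low, with 108 and 56 counts in aged-SP replicates 1 and 4 and 294, 22 and 30 counts in young-SP replicates 1, 2 and 4. In CPM these were 6.53 and 3.58 against 18.4, 1.3 and 2.0. Young-SP replicate 1 was 9.18 times the next young-SP library and 2.82 times the highest aged-SP library, and the other young-SP libraries were the lowest of the 5. The aged-SP mean was 5.06 ± 2.08 CPM (SD, n = 2) and the young-SP mean 7.23 ± 9.67 CPM (SD, n = 3), and the log2 fold change was -0.51 (SE 1.17). It was 1.60 (SE 0.43) without young-SP replicate 1, so the sign turned with that library.

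The intermediate member Slfn4, known from macrophages and other myeloid cells, spread the most. It had 629 and 78 counts in aged-SP replicates 1 and 4 and 4507, 47 and 39 counts in young-SP replicates 1, 2 and 4, which correspond to 38.0 and 4.99 CPM and to 281.9, 2.78 and 2.6 CPM. Young-SP replicate 1 was 101.5 times the next young-SP library and 7.41 times aged-SP replicate 1, which itself stood apart from aged-SP replicate 4. Among the 13434 tested genes with a mean of at least 50 counts, Slfn4 was second in the ratio of young-SP replicate 1 to the highest of the other libraries, after Cwc22 (8.11), a splicing factor. Slfn1 was at place 22, Slfn9 at 159 and Slfn8 at 185 in this order. The group means of Slfn4, 21.5 ± 23.4 CPM (SD, n = 2) for aged-SP and 95.8 ± 161.2 CPM (SD, n = 3), have an SD larger than the mean in both groups. Its log2 fold change was -2.15 (SE 2.2) with all libraries and 2.99 (SE 0.97) without young-SP replicate 1.

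Slfn3, the intermediate neighbour of Slfn4, was nearly even across the libraries. Its level was 6.77 and 6.91 CPM in aged-SP replicates 1 and 4, and 7.69, 9.16 and 7.61 CPM in young-SP replicates 1, 2 and 4. The highest library was 1.35 times the lowest, against 108.3 times for Slfn4, and young-SP replicate 1 lay between the other young-SP libraries. The aged-SP libraries were both below the young-SP libraries, with a mean of 6.84 ± 0.0967 CPM (SD, n = 2) below and 8.16 ± 0.873 CPM (SD, n = 3) above, and a log2 fold change of -0.25 (SE 0.18). Slfn3 was the 1 member of 7 whose groups did not overlap, and 38.8% of all tested genes had groups that did not overlap.

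Among the long members, Slfn5, an interferon-induced nuclear protein that restrains transcription, was the most even. It had 112.7 and 103.3 CPM in aged-SP replicates 1 and 4 and 115.9, 68.3 and 73.7 CPM in young-SP replicates 1, 2 and 4. Young-SP replicate 1 was level with the aged-SP libraries, 1.03 times the higher of them. The mean was 108.0 ± 6.68 CPM (SD, n = 2) with aged-SP and 86.0 ± 26.1 CPM (SD, n = 3) with young-SP, with a log2 fold change of 0.33 (SE 0.24), or 0.59 (SE 0.11) without young-SP replicate 1.

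Slfn8, a long member of lymphoid and myeloid cells, had 25.1 and 23.2 CPM in aged-SP replicates 1 and 4 and 41.9, 9.34 and 11.8 CPM in young-SP replicates 1, 2 and 4. The aged-SP libraries were close together and the young-SP libraries lay on either side of them. The means of 24.1 ± 1.37 CPM (SD, n = 2) for aged-SP and 21 ± 18.1 CPM (SD, n = 3) for young-SP gave a log2 fold change of 0.20 (SE 0.66). Leaving out young-SP replicate 1 gave 1.18 (SE 0.18).

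Slfn9, whose promoter is closest to that of Slfn8, ran in the same way, with 55.1 and 68.7 CPM in aged-SP replicates 1 and 4 and 118.5, 35.4 and 27.7 CPM in young-SP replicates 1, 2 and 4. Young-SP replicate 1 was 1.72 times aged-SP replicate 4, the next library, and 3.35 times the next young-SP library. The means were nearly equal, at 61.9 ± 9.59 CPM (SD, n = 2) for aged-SP and 60.5 ± 50.3 CPM (SD, n = 3), and the log2 fold change was 0.03 (SE 0.64). It was 0.96 (SE 0.17) without young-SP replicate 1.

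**Figure D2:**
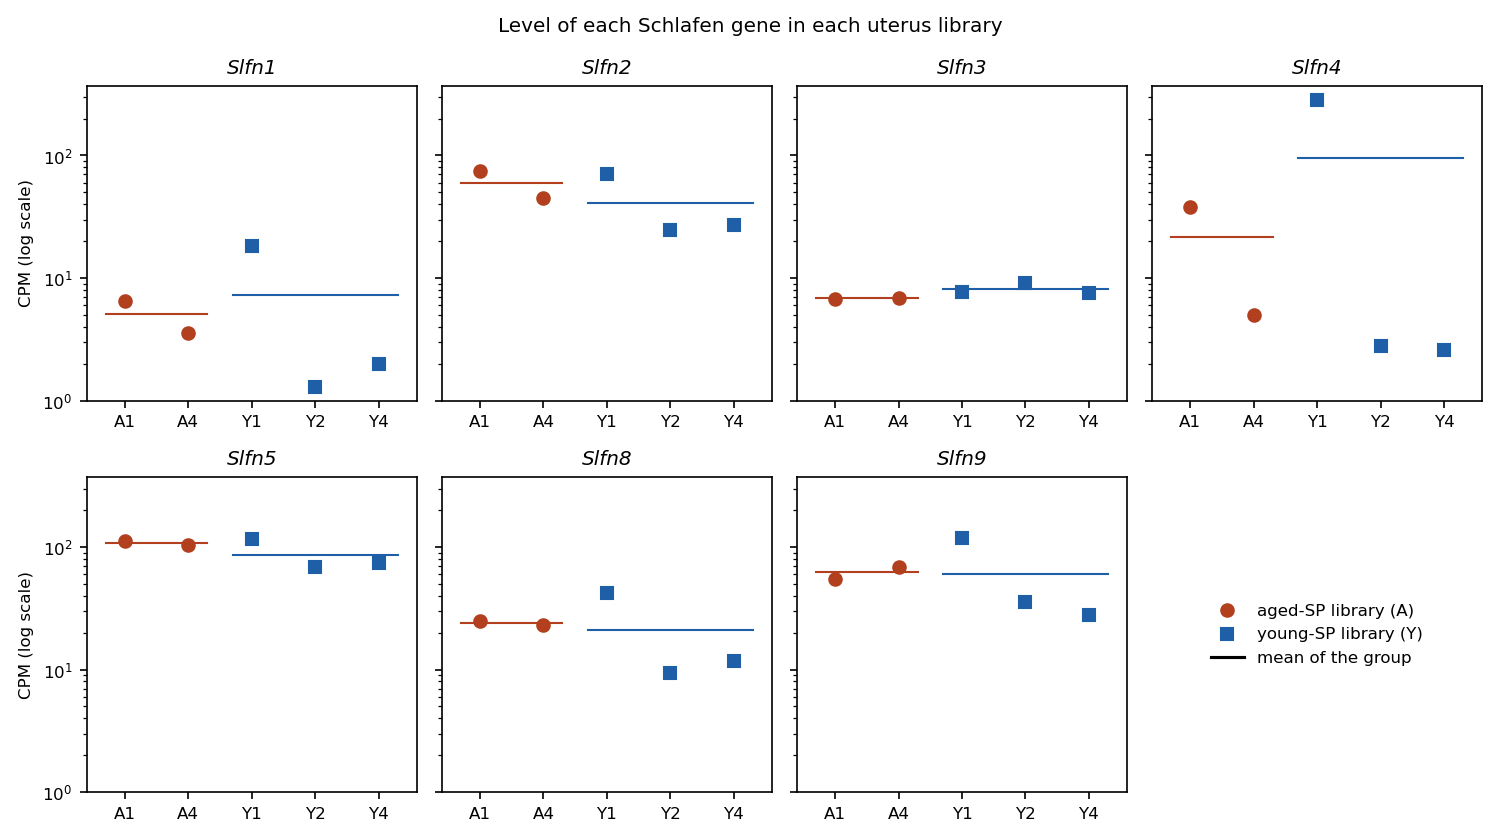
Each panel gives the CPM of 1 Schlafen gene on a log axis in aged-SP replicates 1 and 4 (A1, A4, circles) and young-SP replicates 1, 2 and 4 (Y1, Y2, Y4, squares), with lines at the group means. Young-SP replicate 1 is the highest library in 5 of 7 panels, and in Slfn3 the 5 libraries lie between 6.77 and 9.16 CPM.

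Across the members, aged-SP replicates 1 and 4 and young-SP replicate 1 were all above young-SP replicates 2 and 4 in 6 of 7 genes, with Slfn3 the exception. The same held for 16.3% of all tested genes. Young-SP replicate 1 was the highest of the 5 libraries in Slfn1, Slfn4, Slfn5, Slfn8 and Slfn9, and in 20.6% of all tested genes. Aged-SP replicate 1 and young-SP replicate 1 were the top pair in 5 of 7 members and in 10.9% of tested genes. These patterns were part of why the family was put forward, and nothing is read from the difference. The labels give no date, run or litter by which the libraries could be divided.

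In the fit over all tested genes (edgeR, quasi-likelihood), a gene was called where its Benjamini-Hochberg adjusted p was below 0.05 and its level differed by more than 1 on the log2 scale. This held for 0 of 7 members and for 0.147% of the tested genes, 0.0823% being higher with aged-SP. With p left unadjusted and below 0.05 there were also 0 members, against 1636 genes higher and 1592 lower with aged-SP among the 17013 tested, which is the background for the unadjusted counts given for the lists below. DESeq2 called 0 of the 6 members to which it gave an adjusted p (it gave none to Slfn4) and 3.6% of its tested genes (1.69% higher with aged-SP). The median log2 fold change was 0.03 over the members and 0.01 over all tested genes.

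These values changed when young-SP replicate 1 was left out. The log2 fold change was then above 0 in 6 of 7 members, all but Slfn3, and its median was 1.18, against 0.00 over all tested genes. EdgeR called 1 member, Slfn8, and 3.45% of the tested genes. Slfn9 had an adjusted p of 0.0489 in this edgeR fit, but its log2 fold change of 0.96 was under the threshold of 1. DESeq2 called Slfn2 and Slfn8 (background 5.84%), and limma-voom called Slfn8 (background 2.79%). Leaving out young-SP replicate 2 or 4 instead gave 0 called members, but edgeR then called only 3 and 2 of all tested genes. Young-SP replicate 1 was already known to stand apart. The calls made without it, here and for the lists below, therefore restate the library pattern and add no support.

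**Figure D3:**
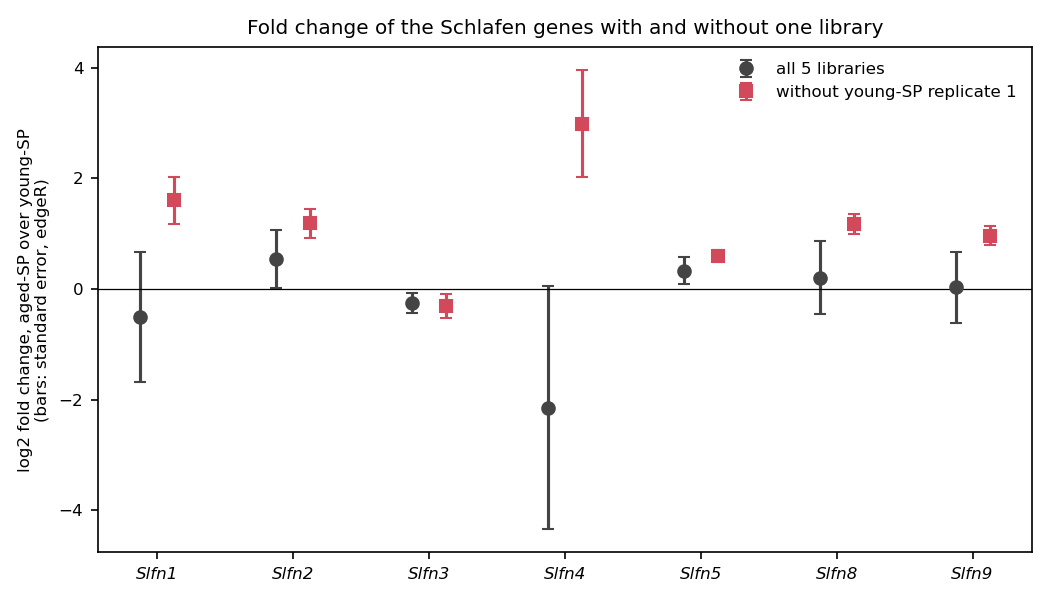
Points are log2 fold changes of aged-SP over young-SP from edgeR for the 7 Schlafen genes. Circles are with all 5 libraries and squares without young-SP replicate 1. Bars are 1 standard error, derived from the fold change and its F statistic. Slfn4 moves from -2.15 to 2.99 and Slfn1 from -0.51 to 1.60, while Slfn3 stays at -0.25 and -0.31.

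Interferon is the best known inducer of these genes, and the other genes of the pathway were read from fixed lists chosen with earlier results of these data known. Of 20 ligands and receptors, 13 had a row and 7 enough counts to be tested, of which 0 were called by edgeR or by DESeq2 and 1 was higher with aged-SP when p was left unadjusted (below 0.05). Ifne, the interferon epsilon that the epithelium of the female tract makes without infection, had 139 and 21 counts in aged-SP replicates 1 and 4 and 113, 14 and 22 counts in young-SP replicates 1, 2 and 4. Like Slfn4, it was highest in aged-SP replicate 1 and young-SP replicate 1. Its log2 fold change was 0.64 (SE 1.10).

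Ifng, the interferon of T and NK cells, had between 2 and 6 counts in a library, and Ifnb1, Ifna4, Ifnz, Ifnk and Ifnl2 had at most 2. Differences in these ligands were not detectable at this depth. The receptor genes were well covered. Ifnar1, a chain of the type I receptor, had 122.2 and 94.6 CPM in aged-SP replicates 1 and 4 and 86.8, 91.3 and 85.9 CPM in young-SP replicates 1, 2 and 4. Ifnar2, its partner, had 60.0 and 52.6 against 47.0, 43.9 and 42.1 CPM. In both genes the aged-SP libraries were above all young-SP libraries, and 38.8% of all tested genes had groups that did not overlap in either direction. Of the interferon gamma receptor chains, Ifngr1 had 88.8 and 107.5 against 103.7, 71.4 and 65.8 CPM, and Ifngr2 had 94.6 and 65.7 against 75.1, 66.5 and 69.2 CPM. The pattern of most Schlafen genes has aged-SP replicates 1 and 4 and young-SP replicate 1 all above young-SP replicates 2 and 4. It was met by 4 of the 7 tested genes of this list (57.1%) and by 16.3% of all tested genes. Ifnar2 and Ifngr1 had it, but neither Ifnar1 nor Ifngr2 did.

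Of 19 signaling genes, 0 were called by edgeR (1 higher at an unadjusted p under 0.05) and 0 by DESeq2, and their median log2 fold change was 0.22. The most abundant, the kinases Jak1 (-0.21, SE 0.11) and Jak2 (-0.27, SE 0.11), stood below 0, as did the RNA sensor Ddx58 (-0.20, SE 0.16). Irf7, the master factor of the late interferon response, had 87.6 and 91.3 CPM in aged-SP replicates 1 and 4 and 120.2, 23.5 and 28.7 CPM in young-SP replicates 1, 2 and 4. It thus had the library pattern of Slfn8 and Slfn9. Without young-SP replicate 1, edgeR called 4 of the 19 as higher. They were Irf7 (log2 fold change 1.76, SE 0.13), Stat2 (1.2, SE 0.19), the feedback inhibitor Usp18 (1.44, SE 0.18) and the RNA sensor Ifih1 (1.33, SE 0.16). The same count was 4 by DESeq2 and 4 by limma-voom. Of all tested genes, 1.74%, 3.46% and 1.3% were called higher in these 3 fits.

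Of 40 interferon-stimulated genes, all tested, 0 were called by edgeR or DESeq2, and 1, the virus-restricting Mx1 (log2 fold change 1.78, SE 0.70), was higher at an unadjusted p under 0.05. Their log2 fold change was above 0 in 39 of 40, with a median of 0.55, against 8663 of the 17013 tested genes and a median of 0.01. The most abundant was the secreted lectin-binding protein Lgals3bp, with 378.4 and 366.7 CPM in aged-SP replicates 1 and 4 and 440.5, 120.3 and 186.6 CPM in young-SP replicates 1, 2 and 4. Bst2, which tethers budding virus, had 216.1 and 279.6 against 280.3, 124.3 and 116.0 CPM. Samd9l and the ADP-ribosyltransferase Parp14 followed, with log2 fold changes of 0.42 (SE 0.36) and 0.85 (SE 0.47).

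The library pattern of the Schlafen genes recurred in this list. Aged-SP replicates 1 and 4 and young-SP replicate 1 were all above young-SP replicates 2 and 4 in 38 of 40 genes, and in 16.3% of all tested genes. The exceptions in the list were Isg20 and Xaf1. Young-SP replicate 1 was the highest library in 26 of the 40, and in 20.6% of all tested genes. The median ratio of young-SP replicate 1 to the higher of the other young-SP libraries was 3.38 in the list, 3.35 in the Schlafen members and 0.938 over all tested genes. Without young-SP replicate 1, edgeR called 21 of 40 as higher and 0 as lower, DESeq2 28 and limma-voom 15, and the background in this direction was 1.74%, 3.46% and 1.3%. Young-SP replicate 1 was already known to stand apart. Leaving it out separates the groups in every gene with this pattern, so these counts restate the pattern and add no support.

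**Figure D4:**
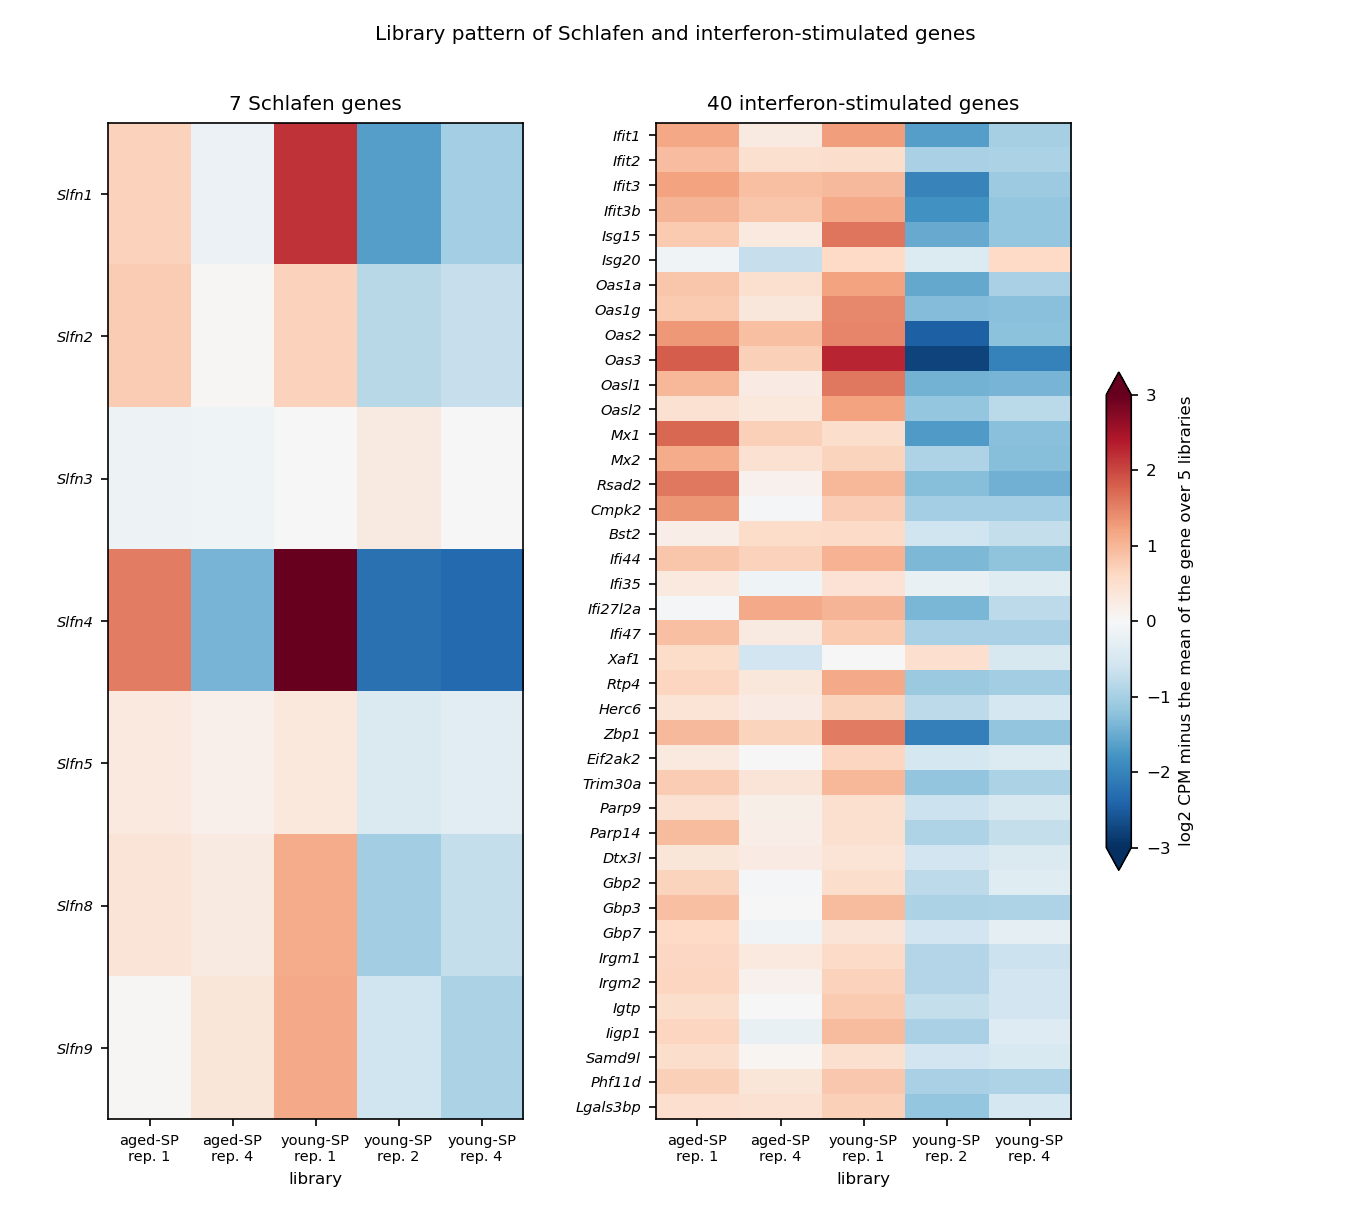
Colours give log2 CPM minus the mean of the gene over the 5 libraries (red above, blue below the mean) for the 7 Schlafen genes and 40 interferon-stimulated genes in the 5 libraries. Aged-SP replicates 1 and 4 and young-SP replicate 1 are above young-SP replicates 2 and 4 in 6 of 7 and in 38 of 40 genes. The same holds for 16.3% of all tested genes.

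Genes with a library pattern most like that of a member were looked for among 13427 tested genes outside the family with a mean of at least 50 counts, by the root mean square difference of centred log2 CPM over the 5 libraries. Those closest to Slfn2 were Irgm2 (0.08), Gbp10 (0.09) and Stat2 (0.10), where the median gene was at 0.69. Irgm2 and Gbp10 encode interferon-inducible GTPases. Irgm2 had 54.7 and 37.9 CPM in aged-SP replicates 1 and 4 and 56.5, 18.9 and 23.3 CPM in young-SP replicates 1, 2 and 4. Those closest to Slfn4 were other genes and lay farther off. They were Hcar2 (0.59), a receptor for niacin and ketone bodies found on neutrophils and macrophages, the kallikrein peptidase Klk10 (0.71) and the neutrophil-attracting chemokine Cxcl2 (0.94), where the median gene was at 2.60. Hcar2 had 8.77 and 0.767 CPM against 22.7, 0.236 and 0.534 CPM. Cxcl2 had 8.83 and 0.192 against 10, 0.118 and 0 CPM. Its values outside aged-SP replicate 1 and young-SP replicate 1 rest on very few reads. In these genes, as in Slfn4, aged-SP replicate 1 was above aged-SP replicate 4 by more than in Slfn2.

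Markers of leukocytes, the cells in which the family is best known, were set beside these values. Of 44 markers, 41 were tested, edgeR called 0 (5 lower at an unadjusted p under 0.05) and DESeq2 called 1, the T cell gene Cd3g, as lower. Their median log2 fold change was -0.23, and the pattern of the Schlafen genes was seen in 7 of 41 (17.1%), against 16.3% of all tested genes. The 6 neutrophil markers summed to 106.9 and 29.4 CPM in aged-SP replicates 1 and 4 and to 250.0, 55.4 and 35.3 CPM in young-SP replicates 1, 2 and 4, with no marker at 0. The sum was thus highest in the libraries where Slfn4 was highest, young-SP replicate 1 and then aged-SP replicate 1. It was lowest in aged-SP replicate 4, where Slfn4 and most Schlafen genes were above young-SP replicates 2 and 4. The calcium-binding S100a9 had 50.1 and 2.17 against 101.8, 14.5 and 5.34 CPM. It was the largest part of the sum in aged-SP replicate 1 and young-SP replicate 1. Retnlg (15.1 and 8.95 against 8.63, 18.4 and 15.3 CPM) and Ly6g (at most 1.22 CPM, in aged-SP replicate 4) were not highest in those libraries. Csf3r and Ly6g had the pattern of most Schlafen genes, and the other neutrophil markers did not. Ly6g had only 3 counts in each of young-SP replicates 2 and 4. The part of neutrophils in the level of Slfn4 was not tested.

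The sums of the other leukocyte classes did not share the library order of the neutrophil sum, and single markers within a class differed. The 10 macrophage and monocyte markers summed to 1303 and 2141 CPM in aged-SP replicates 1 and 4 and to 1988, 1044 and 1424 CPM in young-SP replicates 1, 2 and 4. The sum was lowest in young-SP replicate 2 but higher in young-SP replicate 4 than in aged-SP replicate 1, unlike most Schlafen genes. Lyz2 was its largest part. Cd68, C1qb, Fcgr1 and Ly6c2 did have the pattern of most Schlafen genes, and the other markers of the class did not. The 4 most abundant leukocyte markers were of this class, namely the lysozyme gene Lyz2 (log2 fold change 0.35, SE 0.35), the complement genes C1qb (0.26, SE 0.38) and C1qa (0.02, SE 0.40) and the growth factor receptor gene Csf1r (0.22, SE 0.31). The 7 T cell markers summed to between 26.7 and 28.3 CPM in the aged-SP group and between 34.2 and 38.7 CPM in the young-SP group. The 5 NK cell markers ranged from 25.4 to 34.0 and from 33.5 to 68.0 CPM, and the 3 pan-leukocyte markers from 225.1 to 243.6 and from 215.1 to 292.9 CPM. The 6 dendritic cell markers summed to between 43.3 and 53.1 CPM in all libraries. Among them only Itgax had the pattern, with 15.1 and 19.8 CPM in aged-SP replicates 1 and 4. It had 14.5, 11.4 and 11.3 CPM in young-SP replicates 1, 2 and 4. The 4 markers of uterine epithelium summed to 924.6 and 960.1 CPM in the aged-SP libraries and to 1122, 575.8 and 676.9 CPM in young-SP replicates 1, 2 and 4. This sum had the library pattern of most Schlafen genes, as had Krt18, Epcam and Cdh1 but not Krt8. The part of the epithelium was not tested either.

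Slfn2 is known for holding lymphocytes at rest, so 14 genes of lymphocyte quiescence were read as well. EdgeR and DESeq2 called 0 of them, and 3 were higher at an unadjusted p under 0.05, with a median log2 fold change of 0.30. The pattern of the Schlafen genes was seen in 3 of 14 (21.4%), against 16.3% of all tested genes. Foxo3, a transcription factor of resting cells, had 126.0 and 149.7 CPM in aged-SP replicates 1 and 4 and 103.2, 99.6 and 97.2 CPM in young-SP replicates 1, 2 and 4, and the antiproliferative Btg1 had 267.4 and 192.8 against 184.1, 176.8 and 172.6 CPM. Both are among the 3 genes with this pattern, and in both the groups did not overlap, which also held for 38.8% of all tested genes. Of this pair only Foxo3 was among the genes higher at an unadjusted p under 0.05. Btg2 (0.18, SE 0.17), related to Btg1, and Foxo1 (0.44, SE 0.19), related to Foxo3, were the next in abundance, and neither had the pattern. Without young-SP replicate 1, edgeR called 1 of 14, the transcription factor Runx1, as higher (log2 fold change 1.11, SE 0.19). It called 1.74% of all tested genes as higher.

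Genes next to the cluster were read in the same way. Within 500 kb of the cluster, 27 genes without a Schlafen symbol were tested, among them Gm11427, which shares stretches with Slfn3 and Slfn4. EdgeR and DESeq2 called 0 of them (1 higher and 3 lower at an unadjusted p under 0.05), and their median log2 fold change was 0.18. Aged-SP replicates 1 and 4 and young-SP replicate 1 were all above the other libraries in 8 of 27 (29.6%), against 16.3% of all tested genes. The most abundant neighbours were the clathrin adaptor gene Ap2b1 (0.08, SE 0.13), the RNA-binding Taf15 (-0.16, SE 0.10), the chemokine gene Ccl6 (0.24, SE 0.12) and the DNA ligase gene Lig3 (-0.26, SE 0.12). Without young-SP replicate 1, edgeR called the chemokine genes Ccl5 (1.62, SE 0.22) and Ccl9 (1.04, SE 0.18) as higher. It called 1.74% of all tested genes as higher. Ccl5, which draws T cells, had 8.52 and 8.19 CPM in aged-SP replicates 1 and 4 and 9.95, 2.66 and 2.74 CPM in young-SP replicates 1, 2 and 4, a course like that of Slfn8.

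Further Schlafen genes were scarcely read. The pseudogene Slfn10-ps, which shares 19.7% of its stretches with Slfn8 and Slfn9, had 39 and 21 counts in aged-SP replicates 1 and 4 and 25, 23 and 21 counts in young-SP replicates 1, 2 and 4. Young-SP replicate 1 lay among the other libraries, unlike in Slfn8 and Slfn9, and its log2 fold change was 0.36 (SE 0.35). Slfn14 had at most 2 counts in a library, Slfn5os at most 2 and Slfnl1, which lies on chromosome 4, at most 3. With a floor of 3 counts, no difference in these 3 genes was detectable at this depth.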

How the data were processed

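RNA of 5 mouse uterus libraries (2 aged-SP, 3 young-SP) was analysed, grouped by the sample titles. The authors extracted RNA with TRIzol, built NEBNext Ultra libraries, filtered the reads and aligned them with HISAT2 2.1.0, and the submitters' processing notes also name Bowtie2 2.2.3 and HTSeq 0.6.0. The authors deposited raw counts per gene and library. Deposited FPKM values equal the counts scaled by gene length and library total, and were used only to compare levels between genes. The deposited table also holds a mean signal over the libraries, a fold change as a ratio and on the log2 scale, and p-values and adjusted p-values, all from the authors' DESeq2 comparison, which were not used. The deposited position matched GENCODE M21 (GRCm38) for 26999 of 28666 genes.

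Counts were compared with edgeR 4.0.16 (R 4.3.3) by filterByExpr, TMM (factors between 0.99 and 1.02), glmQLFit and the two-sided glmQLFTest, with Benjamini-Hochberg adjustment over 17013 genes and a threshold of 0.05 with an absolute log2 fold change over 1. The biological coefficient of variation was 25.1%. The edgeR test returns no standard error, so each SE was derived. It is the absolute log2 fold change divided by the square root of the F statistic. CPM are counts divided by the TMM-scaled library size, and likeness was measured on log2 CPM with a prior count of 2. Alternatives were DESeq2 1.42.0, limma 3.58.1 (voom), other scalings, other filters, a replicate block, and each library left out. DESeq2 and limma-voom without young-SP replicate 1 were added after seeing the data. Total counts lay between 15071914 and 16728601 per library, and a count of 3 was the floor, which allows for counting error alone because reads were not tagged as molecules.

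The members and lists were chosen with earlier results of these data known. Genes named are the members, their relatives, the called genes and the 4 most abundant genes of a list, interferon ligands above the floor and the 3 genes most like Slfn2 and Slfn4. Ifnb1, Ifna4, Ifnz, Ifnk, Ifnl2, Mx1, Isg20, Xaf1, Cwc22, Ccl5, Ccl9, Cd3g, Gm11427 and single markers of leukocytes and of uterine epithelium were named after their values were seen. Protein sequences were not used here.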

Additional observations from a re-analysis of the deposited data

How the results depend on the processing

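The number of called members was 0 with all 5 libraries under other scalings, filters, limma-voom, DESeq2, the replicate block and the adjusted p alone. It was 0 to 1 with each library left out, and without young-SP replicate 1 it was 2 by DESeq2 and 1 by limma-voom. Leaving out each library in turn moved the log2 fold change of Slfn1 between -1.01 and 1.60, of Slfn2 between 0.13 and 1.19, of Slfn3 between -0.31 and -0.16, of Slfn4 between -4.26 and 2.99, of Slfn5 between 0.19 and 0.59, of Slfn8 between -0.16 and 1.18 and of Slfn9 between -0.32 and 0.96, with the upper end of every range but that of Slfn3 reached without young-SP replicate 1. Limma-voom with all libraries turned the sign of Slfn1 (0.42) and Slfn4 (0.14), and the cause was not tested. The number of members whose place in the order of levels differed from that of the mean was 2 in aged-SP replicate 1, 5 in aged-SP replicate 4, and 4, 5 and 5 in young-SP replicates 1, 2 and 4. It was 0 when CPM per kilobase of exon took the place of FPKM. The gene lengths were the same in both, so the lengths themselves were not tested. Over all tested genes, edgeR called 25, against 632 with DESeq2, 203 without a filter, 2 with the replicate block and 1 to 578 with a library left out (1 without aged-SP replicate 1, 49 without aged-SP replicate 4, and 578, 3 and 2 without young-SP replicates 1, 2 and 4). Without young-SP replicate 1, DESeq2 called 1002 and limma-voom 467. With a library left out, counts were 0 to 4 for signaling genes, 0 to 21 for interferon-stimulated genes, 0 to 1 for quiescence genes and 0 to 2 for neighbours, all from the fit without young-SP replicate 1. DESeq2 called 1 leukocyte marker. No scaling moved the median log2 fold change of all genes by over 0.1. The fit without an aged-SP library assumes that the remaining one varies like the young-SP libraries.

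Replicate numbers 1 and 4 occur in both groups, but the labels do not say that they mark a pair, and 2 pairs are too few to tell. Deviations from the group means correlated at 0.152 and 0.136 in libraries of the same number. The 2 aged-SP libraries deviate from their mean by opposite amounts. With the other aged-SP library, young-SP replicates 1 and 4 therefore gave -0.152 and -0.136. Young-SP replicate 2 gave -0.0757 with aged-SP replicate 1 and 0.0757 with aged-SP replicate 4. With the number as a block, 0 members were called, and the log2 fold change was -0.43 for Slfn1, 0.39 for Slfn2, -0.16 for Slfn3, -1.42 for Slfn4, 0.22 for Slfn5, 0.10 for Slfn8 and 0.08 for Slfn9.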
